A study of Mus musculus with 24 samples.

Results

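The 9 genes described here belong to the pericellular proteolysis systems of the macrophage, plasminogen activation and the matrix metalloproteinases: Plau, Plaur, Serpinb2, Mmp8, Mmp9, Mmp12, Mmp13, Mmp14 and Timp1. They were looked up by gene symbol in the expression tables, and all 9 were listed among 18063 genes in the M1 tables and 17786 genes in the M2 tables. The genes were chosen on earlier results of these same libraries. Plau was among the 5 largest rises with dopamine in M1 WT cells, and the comparison that put the others together is not recorded. Their differences with dopamine (DA) in WT cells, and between WT and DRD5-/- cells given DA, are therefore descriptions and carry no test. Whether the other comparisons also took part in choosing the genes is not known. The members' adjusted p-values in those comparisons are given with that limit and may be too small. mRNA was measured in bone marrow-derived macrophages (BMDMs) from C57BL/6 mice aged 10 weeks, either wild type (WT) or lacking DRD5, the D5 dopamine receptor (DRD5-/-, labelled DRD5 KO). M1 cells had LPS at 100 ng/ml and IFN-γ at 50 ng/ml, and M2 cells had IL-4 and IL-13 at 10 ng/ml each, for 12 h, with DA or without it. Crossing genotype, stimulus and DA gave 8 groups of 3 libraries, 24 in all. There were no unstimulated cells. The labels do not say whether the 3 libraries of a group came from separate mice or cultures, so the p-values measure only the spread between these libraries.

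Urokinase, the product of Plau, cleaves plasminogen to plasmin, a broad serine protease that degrades fibrin and matrix and can activate some pro-metalloproteinases. Plaur encodes the surface receptor that holds urokinase at the cell membrane, and Serpinb2 encodes PAI-2, an inhibitor of urokinase. Matrix metalloproteinases are zinc enzymes that cut collagens, elastin and other matrix proteins. They are held in check by the TIMP inhibitors, of which Timp1 is one. In macrophages these systems are known for their part in migration, wound repair and tissue remodelling.

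On the mouse genome (GRCm38), 3 of the metalloproteinase genes sit together. Mmp13 (chr9:7272514-7283333), Mmp12 (chr9:7344397-7360461) and Mmp8 (chr9:7558429-7568486) lie within 296 kb of chromosome 9, among 10 Mmp genes. Plau is at chr14:20836662-20843388 and Mmp14 on the same chromosome at chr14:54431598-54442456. Plaur is at chr7:24460937-24475970, Serpinb2 at chr1:107500892-107525600, Mmp9 at chr2:164940326-164955850 and Timp1 at chrX:20870166-20874737.

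Promoter windows from RefSeq (GRCm38.p6) were matched for 7 members, with 9 transcript starts. The starts of Serpinb2, at 107511423 and 107511510, and of Plaur, at 24462483, lie inside the gene spans given above. The outer ends of those spans had no window and were not searched. Plau and Mmp9 had no window and were not searched. The 250 bases before each start were searched on both strands for 4 motifs. The AP-1 motif TGANTCA was found before 5 of the 9 starts, in 4 of the 7 genes (Serpinb2, Plaur, Mmp13 and Mmp12), against 6.75% of 32851 windows of all genes. The 2 Serpinb2 starts share a single copy of the motif. The stretches that hold a copy within 100 bases of the start are shown because these 4 genes were among those at higher levels in DA-treated WT cells under both stimuli. Each line reads 5′ to 3′ on the plus strand and ends 1 base before the transcript start, and capitals mark the motif.
Serpinb2, chr1:107511323-107511422: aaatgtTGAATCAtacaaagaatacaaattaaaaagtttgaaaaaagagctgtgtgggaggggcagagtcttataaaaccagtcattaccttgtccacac
Plaur, chr7:24462383-24462482: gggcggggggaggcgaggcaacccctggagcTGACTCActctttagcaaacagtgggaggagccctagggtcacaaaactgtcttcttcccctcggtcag
Mmp13, chr9:7272414-7272513: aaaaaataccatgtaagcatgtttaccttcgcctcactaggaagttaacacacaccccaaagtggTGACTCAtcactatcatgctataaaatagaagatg
Mmp12, second start, chr9:7347274-7347373: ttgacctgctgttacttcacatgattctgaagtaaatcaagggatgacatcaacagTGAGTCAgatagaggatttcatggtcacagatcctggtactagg
The first base of the motif lies 94 bases before the start in Serpinb2, 69 in Plaur, 35 in Mmp13 and 44 in Mmp12. No copy lay in the windows of the other Mmp12 start, Mmp8, Mmp14 or Timp1. Mmp8 too was called higher with DA in WT cells under both stimuli. The CRE motif TGACGTCA, present in 1.55% of all windows, the kappaB motif, in 3.90%, and the STAT6 motif TTCNNNNGAA, in 5.85%, were in none of the 9 windows. A match of letters is a description and not a site of binding.

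Some facts of the whole series touch these genes. Drd5 itself was not listed in the M1 tables and was at 0 FPKM in 10 of 12 M2 libraries, with a highest value of 0.06, so its level does not check the genotype labels. The 8 macrophage markers summed to between 7263 and 11297 FPKM in each library. The neutrophil list of 10 markers, which includes Ngp, Camp, Ltf and S100a9, was present in the M1 WT libraries: it summed to 46.0 to 57.9 FPKM in M1 WT and 64.9 to 84.7 in M1 WT with DA, against 15.8 to 19.1 in M1 DRD5-/- and 18.4 to 21.3 in M1 DRD5-/- with DA. S100a8 was the largest single part of that sum in each M1 group. Cxcr2 was nearly alike in all M1 groups, at means of 1.1 to 1.21 FPKM. Mpo, Prtn3 and Ly6g had means of at most 0.24 FPKM in M1, and Elane was at 0 in every M1 library. In M2 the same list summed to at most 2.24. A list of 14 heart and striated muscle genes, chosen after its values were seen, also stood apart between the M1 genotypes, at 15.5 to 23.1 in WT and 5.06 to 6.16 in DRD5-/-. A list of 4 dendritic cell markers was lower with DA in M1 WT, at 38.1 to 40.3 without DA and 21.4 to 22.3 with it, against 40.4 to 41.6 in M1 DRD5-/- and 39.8 to 43.0 in M1 DRD5-/- with DA. Ccr7 made up most of that sum, at a mean of 36.9 FPKM in M1 WT and 20.1 with DA. Xcr1 was at means of 1.67 and 0.93, Zbtb46 at 0.557 and 0.5, and Flt3, which was higher with DA, at 0.303 and 0.343. The part of this list in the M1 differences with DA was not tested. A list of 7 fibroblast and stromal markers ran from 4.45 to 5.31 in M1. In M2 it summed to 129 to 132 in WT, 105 to 106 in WT with DA, 81.0 to 83.0 in DRD5-/- and 88.3 to 89.9 in DRD5-/- with DA. In bulk RNA, fewer cells of a type and less RNA per cell cannot be told apart. M1 and M2 files list different genes and were fitted apart, so levels under the 2 stimuli are set side by side with no test.

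Levels are in FPKM, a read measure scaled to transcript length and library total, which allows genes to be compared per length. In untreated M1 WT cells the collagenase gene Mmp13 was the highest member at 320.1 ± 8.07 FPKM (SD, n = 3), followed by Mmp12 at 234 ± 7.78 (SD, n = 3), Mmp14 at 147 ± 1.60, Timp1 at 93.3 ± 0.860 and Plaur at 57.1 ± 0.741. Mmp8, Serpinb2 and Plau were lower, at 13.6, 11.4 and 8.54 FPKM. Mmp9 stood last and was below 1 FPKM. No 2 neighbours in this order had overlapping libraries. In untreated M2 WT cells the order was another. Mmp12, the macrophage elastase, led at 752 ± 17.9 FPKM (SD, n = 3), and the next member, Timp1, was at 38.0 ± 1.99. Plaur was at 30.2, Plau at 16.0, Mmp13 at 12.3, Mmp9 at 12.2, Mmp14 at 8.29, Serpinb2 at 5.38 and Mmp8 at 1.35 FPKM. Mmp13 and Mmp9 overlapped in M2 WT and the other neighbours did not.

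**Figure D1:**
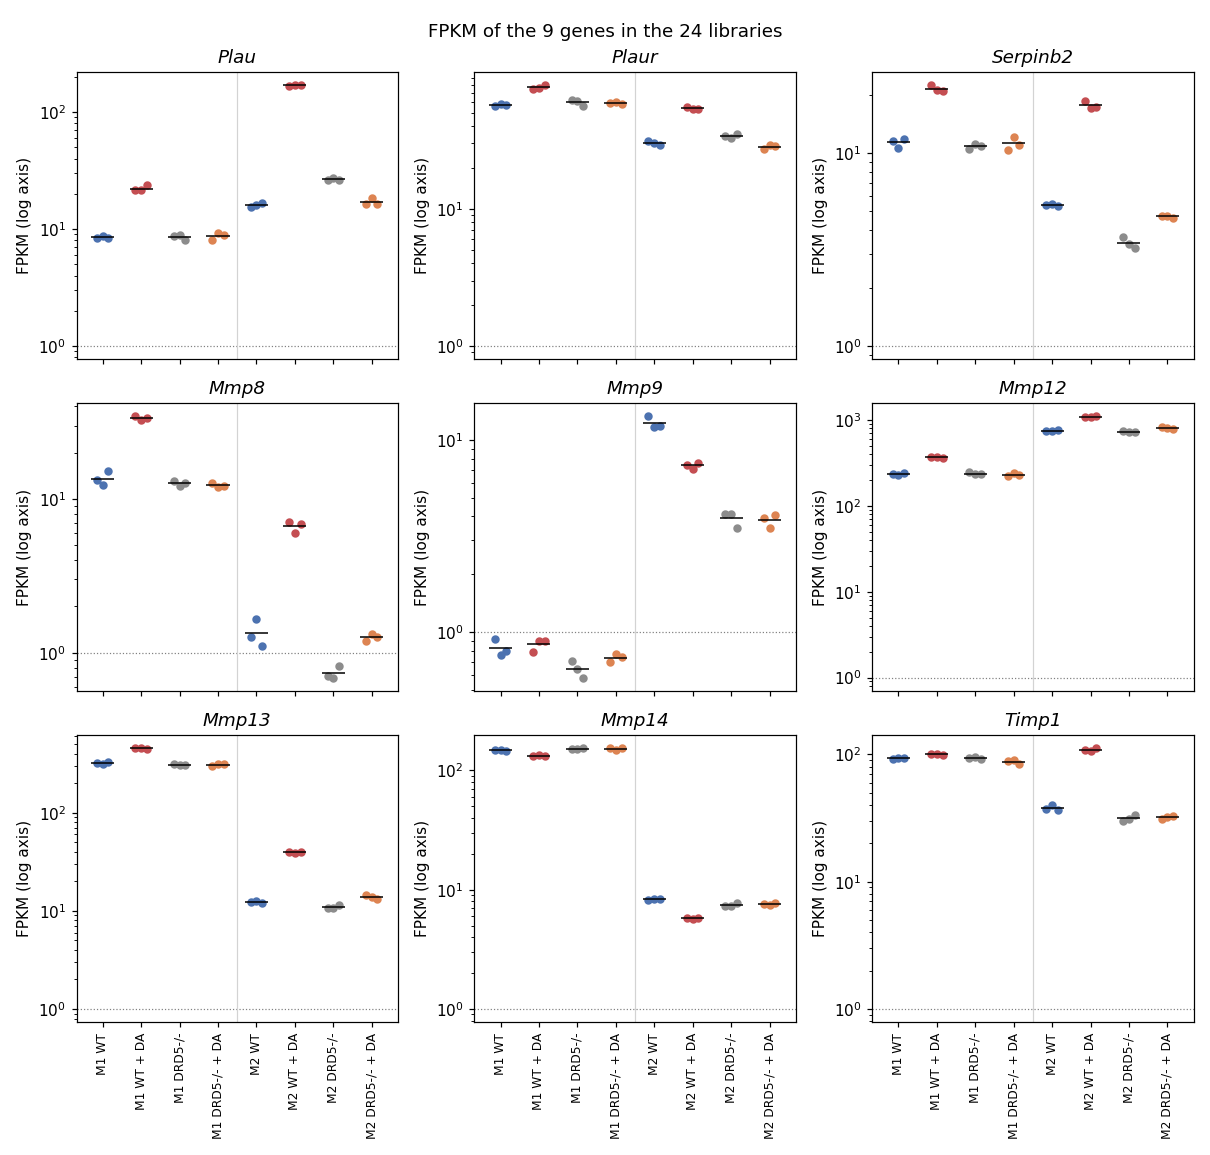
FPKM on log axes for each of the 9 genes, 1 point per library and a line at the mean of the 3 libraries in each of the 8 groups, with M1 left and M2 right of the grey line and a dotted line at 1 FPKM. In M1, the 3 WT libraries with DA stand above all other M1 libraries for Plau, Plaur, Serpinb2, Mmp8, Mmp12, Mmp13 and Timp1, and below them for Mmp14. The share of all genes that stand apart in this way was not counted.

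With DA, M1 WT cells had higher Plau, Mmp8, Serpinb2, Mmp12, Mmp13 and Plaur, and no such difference passed the threshold in DRD5-/- cells. Plau, the urokinase gene, was at 8.44, 8.81 and 8.38 FPKM in the untreated M1 WT libraries and at 21.6, 21.5 and 23.7 with DA. It was at 8.68, 8.85 and 8.02 in M1 DRD5-/- and at 8.13, 9.17 and 8.90 in M1 DRD5-/- with DA. The DA-treated WT libraries stood apart and the other 3 groups overlapped. The mean was 2.60 times that of untreated WT, a log2 fold change of 1.28 ± 0.0532 (SE), the fifth largest rise of 10040 genes tested. All log2 fold changes are on the log2(FPKM + 1) scale, which understates the change of genes at low levels. Plaur, the urokinase receptor gene, was at 56.4, 57.9 and 57.1 FPKM without DA and at 75.1, 75.5 and 80.0 with DA in M1 WT, a log2 fold change of 0.42 ± 0.0390. Serpinb2, the inhibitor gene, was at 11.6, 10.7 and 11.8 FPKM and with DA at 22.6, 21.4 and 20.9, a log2 fold change of 0.87 ± 0.0543. Protease, receptor and inhibitor transcripts were thus all higher in these libraries. The ratio of Plau to Serpinb2 FPKM ran from 0.709 to 0.823 in M1 WT and from 0.954 to 1.13 with DA, and that of Plau to Plaur from 0.147 to 0.152 and from 0.284 to 0.296.

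Among the metalloproteinases in M1 WT cells, Mmp8, the neutrophil collagenase, had the largest difference. It was at 13.2, 12.4 and 15.1 FPKM without DA and at 34.4, 32.8 and 33.8 with DA, a log2 fold change of 1.26 ± 0.0560 (SE). It was at 13.1, 12.2 and 12.7 in M1 DRD5-/- and at 12.7, 11.9 and 12.1 with DA. The summed neutrophil markers also had their highest M1 group mean in M1 WT with DA. Ngp was at a mean of 8.50 FPKM in M1 WT, 8.64 in M1 WT with DA and 0.1 in M1 DRD5-/-, and S100a8 at 25, 41.7 and 15.3. The part of these markers in the Mmp8 difference with DA was not tested. Mmp12 was at 235, 226 and 242 FPKM without DA and at 370.2, 371 and 358 with DA, a log2 fold change of 0.64 ± 0.0325. Mmp13 was at 324, 311 and 326 FPKM and with DA at 457, 457 and 446, a log2 fold change of 0.50 ± 0.0258. Neither gene had a DRD5-/- library as high as any WT library with DA, and the share of all genes that stood apart so was not counted.

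Mmp14, the membrane-anchored metalloproteinase that activates pro-Mmp2, went the other way. It was at 147, 149 and 146 FPKM in M1 WT and at 131, 134 and 133 with DA, a log2 fold change of -0.15 ± 0.0243 (SE), under the fold that was asked for. Timp1 was at 92.3, 93.9 and 93.7 FPKM and with DA at 100.3, 100.7 and 98.6, a log2 fold change of 0.10 ± 0.0276, also under it. Mmp9, gelatinase B, was below 1 FPKM in all 12 M1 libraries, from 0.58 to 0.92, and was left out of the M1 fit.

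The call asked for an adjusted p under 0.001 in limma with Benjamini-Hochberg adjustment over all genes tested and a fold of at least 1.2. By it 6 of the 8 tested members were called with DA in M1 WT cells, all 6 higher, against 14.3% of all 10040 genes in either direction and 4.73% higher. Of all calls 33.0% were higher, and 55.2% with median-of-ratios scaling. Since the members were chosen with these results in view, nothing is read from that count.

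In M1 DRD5-/- cells, none of the 8 tested members was called with DA by limma (Benjamini-Hochberg adjusted p between 0.839 and 0.998), and 1 of them, Timp1, had an unadjusted p under 0.05. Of all 10040 genes 0% were called, with 569 at an unadjusted p under 0.05. The log2 fold changes ran from -0.09 to 0.04, with Plau at 0.03 ± 0.0532 (SE). Timp1 was at 93.1, 95.1 and 91.8 FPKM in M1 DRD5-/- and at 88.2, 89.9 and 84.5 with DA, and these libraries did not overlap. Between untreated DRD5-/- and WT M1 cells, none of the 8 members was called (limma, adjusted p between 0.234 and 0.988). None of the 8 had an unadjusted p under 0.05. Of all 10040 genes 0.936% were called, and 2557 had an unadjusted p under 0.05. The largest log2 difference among the 8 members was -0.09 ± 0.0560, for Mmp8.

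Set directly against each other, DA-treated M1 WT and DRD5-/- cells differed past the threshold in the same 6 genes, against 18.5% of all genes called. Of those 1861 calls 597 were higher in WT, and 866 of 1669 with median-of-ratios scaling. The log2 differences, WT minus DRD5-/-, were 1.39 ± 0.0560 (SE) for Mmp8, 1.26 ± 0.0532 for Plau, 0.89 ± 0.0543 for Serpinb2, 0.67 ± 0.0325 for Mmp12, 0.55 ± 0.0258 for Mmp13 and 0.37 ± 0.0390 for Plaur. Mmp14 was at -0.19 and Timp1 at 0.19, both under the fold asked for. The difference between the genotypes in the DA effect itself was called for those 6 genes and for 8.38% of all genes, 321 of 841 of them upward, or 448 of 714 with median-of-ratios scaling. It was largest for Mmp8, at 1.30 ± 0.0791 on the log2 scale, and Plau, at 1.25 ± 0.0752.

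**Figure D2:**
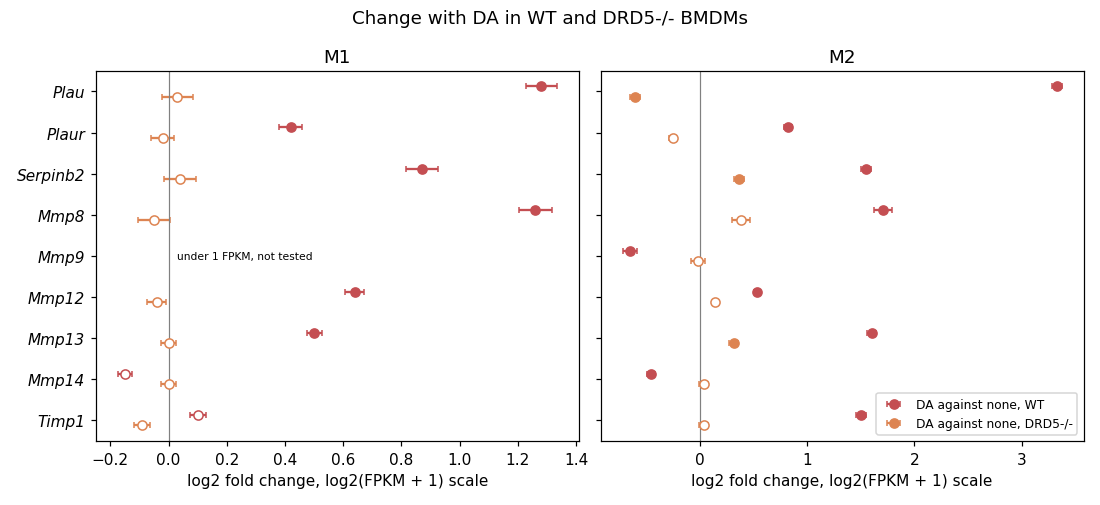
Log2 fold change with DA on the log2(FPKM + 1) scale for each gene in WT (red) and DRD5-/- (orange) cells, M1 left and M2 right with different axis ranges, bars giving the SE and filled points those past an adjusted p of 0.001 and 1.2-fold. Plau lies at 1.28 in M1 WT and 3.33 in M2 WT, and in DRD5-/- cells at 0.03 and -0.61.

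Under IL-4 and IL-13 the differences with DA in WT cells covered every member. Plau was at 15.4, 16.0 and 16.6 FPKM in the untreated M2 WT libraries and at 168, 170.4 and 171 with DA. The mean was 10.6 times higher, a log2 fold change of 3.33 ± 0.0438 (SE), the seventh largest rise of 10735 genes tested. With DA, Plau passed Timp1 and Plaur and stood next to Mmp12 in the order of levels. Plaur was at 31.2, 30.2 and 29.2 FPKM without DA and at 54.8, 53.5 and 53.6 with DA, a log2 fold change of 0.82 ± 0.0356. Serpinb2 was at 5.39, 5.44 and 5.32 FPKM and with DA at 18.7, 17.2 and 17.3, a log2 fold change of 1.55 ± 0.0473. None of the 3 genes had overlapping libraries with and without DA, and the share of all genes without overlap was not counted. In this comparison 8144 of all 10735 genes had an unadjusted p under 0.05, so such separation is not particular to these 3. The ratio of Plau to Serpinb2 ran from 2.85 to 3.13 without DA and from 8.95 to 9.89 with DA in M2 WT.

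The 3 chromosome 9 metalloproteinases were higher with DA in M2 WT as well. Mmp8 was at 1.27, 1.67 and 1.10 FPKM without DA and at 7.05, 6.00 and 6.92 with DA, a log2 fold change of 1.71 ± 0.0844 (SE). Its level was near the limit of 1 FPKM, and all 3 untreated M2 DRD5-/- libraries, at 0.71, 0.69 and 0.82, lay below it. Mmp13 was at 12.2, 12.7 and 12.0 FPKM and with DA at 39.4, 39.0 and 39.8, a log2 fold change of 1.60 ± 0.0417. Mmp12 was at 747, 737 and 772 FPKM and with DA at 1096, 1072 and 1103, a log2 fold change of 0.53 ± 0.0252. The inhibitor gene Timp1 followed them, from 37.4, 40.2 and 36.3 FPKM to 109, 106 and 112, a log2 fold change of 1.5 ± 0.0430. In M2 WT, Timp1 was thus 2.87 times higher with DA, where in M1 WT it was 1.07 times higher.

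Mmp9 and Mmp14 were lower with DA in M2 WT cells. Mmp9 was at 13.3, 11.6 and 11.9 FPKM without DA and at 7.42, 7.07 and 7.63 with DA, a log2 fold change of -0.66 ± 0.0669 (SE). Mmp14 was at 8.20, 8.31 and 8.35 FPKM and with DA at 5.77, 5.70 and 5.77, a log2 fold change of -0.46 ± 0.0384. Mmp14 was the member that was lower with DA in WT cells under both stimuli, at 0.903 times in M1 and 0.693 times in M2 as ratios of mean FPKM. Its M1 log2 fold change of -0.15 was under the fold asked for and not called. The median log2 fold change of all genes in that M1 comparison was -0.07. The summed fibroblast and stromal list was also lower in M2 WT with DA, but its genes went both ways. Dcn was at a mean of 75.1 FPKM without DA and 43.3 with it, and the means of Lum, Pdgfra and, with overlapping libraries, Pdgfrb were lower too, while Col1a1 was at 19 and 23.4, Col1a2 at 21.5 and 25.9 and Col3a1 at 6.97 and 8.79. The part of those markers in the lower Mmp14 was not tested. All 9 members were called in M2 WT, 7 higher and 2 lower, against 46.3% of 10735 genes in either direction and 25.9% higher.

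In M2 DRD5-/- cells, 3 of the 9 members were called with DA, against 4.02% of all genes. Plau fell, from 26.4, 27.6 and 26.1 FPKM to 16.3, 18.6 and 16.5, a log2 fold change of -0.61 ± 0.0438 (SE; limma, adjusted p = 6.64e-07). Serpinb2 rose from 3.68, 3.40 and 3.24 FPKM to 4.72, 4.74 and 4.63, a log2 fold change of 0.36 ± 0.0473 (limma, adjusted p = 9.54e-05). Mmp13 rose from 10.6, 10.8 and 11.6 FPKM to 14.6, 13.8 and 13.2, a log2 fold change of 0.31 ± 0.0417 (limma, adjusted p = 0.000124). Protease and inhibitor thus moved in opposite directions in these cells. The ratio of Plau to Serpinb2 was 7.19 to 8.11 in M2 DRD5-/- and 3.46 to 3.92 with DA. Plaur had a log2 fold change of -0.26 ± 0.0356 (limma, adjusted p = 0.000126), just under the fold asked for, and was called with a pseudocount of 0.1, with median-of-ratios scaling and without M2 DRD5-/- replicate 2 or DA-treated M2 DRD5-/- replicate 2 or 3. Mmp8 was at 0.38 ± 0.0844 (limma, adjusted p = 0.00434). Mmp12 was at 0.14, or 0.27 and called with quantile normalization. Mmp14 and Timp1 were at 0.03 each and Mmp9 at -0.02, and none of the 3 was called.

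The fall of Plau, the rise of Serpinb2 and the shift of their ratio in M2 DRD5-/- cells share their untreated libraries with another comparison. That is the comparison of the genotypes without DA, in which Plau was higher and Serpinb2 lower in DRD5-/-. There 4 of the 9 members were called, against 5.51% of all genes, 147 of 592 of them higher in DRD5-/-, or 206 of 555 with median-of-ratios scaling. Plau was 1.67 times higher in M2 DRD5-/- than in M2 WT, a log2 difference of 0.71 ± 0.0438 (SE; limma, adjusted p = 6.09e-08). Mmp9 was lower, at 4.14, 4.10 and 3.48 FPKM in M2 DRD5-/- against 13.3, 11.6 and 11.9 in M2 WT, a log2 difference of -1.43 ± 0.0669 (limma, adjusted p = 3.83e-09). Serpinb2 was lower by a log2 difference of -0.52 ± 0.0473 (limma, adjusted p = 2.00e-06). Timp1 was lower by -0.27 ± 0.0430 (limma, adjusted p = 0.000432), and this call was lost with no expression filter, with both other scalings and without M2 WT replicate 1 or 2 or M2 DRD5-/- replicate 1 or 2, at log2 differences from -0.22 to -0.28. Mmp8 was at -0.42 ± 0.0844 (limma, adjusted p = 0.00210) and not called, and it was called without M2 WT replicate 3 (limma, adjusted p = 0.000969) and with a pseudocount of 0.1, at -0.77. Plaur, Mmp13, Mmp14 and Mmp12 were at 0.17, -0.15, -0.14 and -0.04. The fibroblast and stromal markers were lower in M2 DRD5-/- than in M2 WT too, with all 7 of the list expressed, and their part in the lower Mmp9 and Timp1 was not tested.

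**Figure D3:**
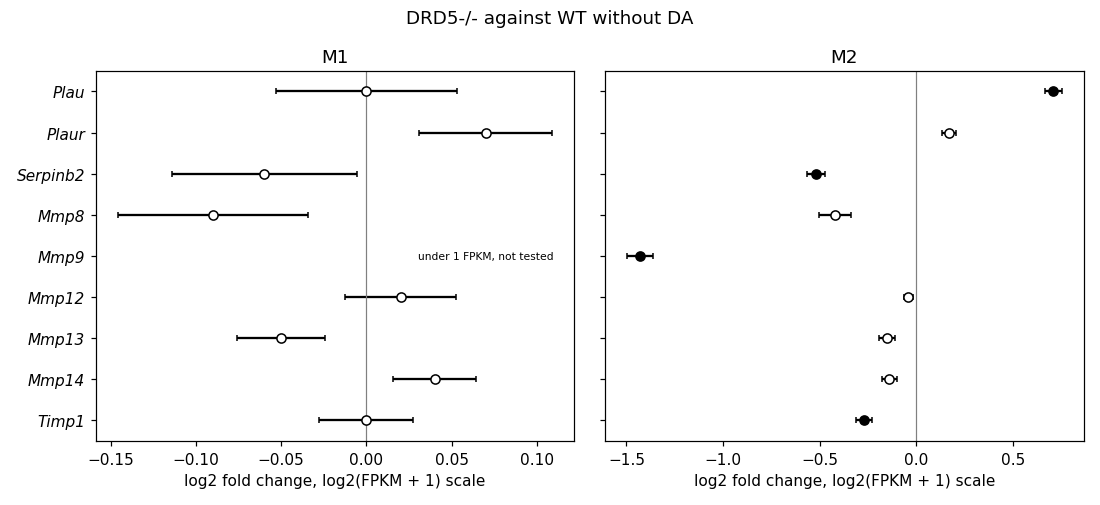
Log2 difference of untreated DRD5-/- against untreated WT cells on the log2(FPKM + 1) scale, M1 left and M2 right with different axis ranges, bars giving the SE and filled points those past an adjusted p of 0.001 and 1.2-fold. No M1 point is filled, and in M2 the 4 filled points are Plau at 0.71, Timp1 at -0.27, Serpinb2 at -0.52 and Mmp9 at -1.43.

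With DA given to both genotypes, all 9 members were called between M2 WT and M2 DRD5-/-, against 49.7% of all genes. Plau was 9.91 times higher in WT, a log2 difference of 3.24 ± 0.0438 (SE). Mmp8, Timp1, Serpinb2 and Mmp13 followed, at 1.76, 1.74, 1.72 and 1.45, then Plaur at 0.91, Mmp9 at 0.79 and Mmp12 at 0.43. Mmp14 alone was lower in WT, at -0.36 ± 0.0384. Mmp9 was higher in WT with DA than in DRD5-/- with DA, at 7.37 ± 0.283 against 3.84 ± 0.305 FPKM (SD, n = 3 each), although DA-treated WT cells had less of it than untreated WT cells. The difference between the genotypes in the DA effect was called for all 9 members and for 43.2% of all genes. For Plau it was 3.94 ± 0.0620 on the log2 scale, the largest rise of the 10735 genes, and it joins the higher Plau with DA in WT to the lower Plau with DA in DRD5-/-. For Mmp9 and Mmp14 it was -0.64 ± 0.0946 and -0.49 ± 0.0542, and for the others it lay between 0.39, for Mmp12, and 1.47, for Timp1.

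The other genes of these systems were taken as 4 lists of 53 genes in all, written from gene names without regard to how they moved, though with earlier results of these data known. In M1, 22 of the 53 were tested. With DA in WT cells 10 of them passed the threshold, 7 higher and 3 lower, with a median log2 fold change of 0.09 over the 22 and of -0.07 over all 10040 genes, of which 14.3% were called and 4.73% were called higher. With median-of-ratios scaling 9 of 10 related genes called were higher, and without M1 WT replicate 2 or 3 or DA-treated M1 WT replicate 2, 7 of them were called, 4 of them higher. In the plasminogen list 3 of 6 tested genes rose. S100a10 and Anxa2, whose products form a surface receptor for plasminogen and tissue plasminogen activator, rose by 0.67 ± 0.0312 (SE; limma, adjusted p = 6.73e-10) and 0.28 ± 0.0238 on the log2 scale. Serpinb8 rose by 0.28.

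Of 4 other MMPs tested in M1 WT cells, Mmp25 fell by 0.62 on the log2 scale and Mmp27, which lies next to Mmp8, rose by 0.50 from a mean of 2.06 to 3.32 FPKM. Of 6 inhibitors and regulators tested, Cd44, a surface receptor for hyaluronan that can dock Mmp9, rose by 0.37. Furin, the proprotein convertase that activates Mmp14, fell by 0.29 and Lcn2 fell by 0.31. Of 6 ADAM and ADAMTS genes tested, Adam8 rose by 0.35 and Adam10 by 0.27. With DA in M1 DRD5-/- cells none of the 22 was called by limma, and 1 had an unadjusted p under 0.05. Of all 10040 genes 0% were called and 569 had an unadjusted p under 0.05. Between untreated M1 genotypes none of the 22 was called and 8 had an unadjusted p under 0.05. There 0.936% of all 10040 genes were called and 2557 had an unadjusted p under 0.05. The DA effect differed between the M1 genotypes for 6 of the 22, against 8.38% of all genes. S100a10, Anxa2, Cd44 and Adam8 were upward and Mmp25 and Furin downward.

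In M2, 50 of the 53 genes were listed and 29 tested, of which 16 passed the threshold with DA in WT cells, 7 higher and 9 lower, with a median log2 fold change of -0.10 over the 29 and of 0.03 over all genes, of which 46.3% were called. Of the 7 other MMPs tested 5 fell and 1 rose. Mmp3, stromelysin 1, fell from a mean of 37.9 to 11.2 FPKM, a log2 fold change of -1.67 ± 0.0322 (SE; limma, adjusted p = 1.32e-14). Mmp19 fell by 1.04, Mmp10 by 0.78, Mmp23 by 0.73 and Mmp2, gelatinase A, by 0.60. Mmp27 rose by 0.89. In the chromosome 9 cluster, then, Mmp13, Mmp12, Mmp8 and Mmp27 were higher with DA in M2 WT, and Mmp3 and Mmp10, which lie between Mmp12 and Mmp8, were lower. Mmp1a and Mmp1b had a mean of at most 0.0233 FPKM in every group. Mmp3, Mmp2 and Timp2 are also made by stromal cells, of whose 7 markers 4 were lower and the 3 collagen genes higher in the mean of M2 WT with DA, and their part was not tested.

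In the M2 plasminogen list, 2 of 6 tested genes rose and 1 fell with DA in WT cells. S100a10 rose by 0.35 and Lrp1, an endocytic receptor that clears urokinase bound to its inhibitors, by 0.36. Serpine2, protease nexin 1, fell by 0.58. Among the inhibitors Timp2 fell by 0.61, from a mean of 323 to 212 FPKM, and Timp3 rose by 0.40, so that with Timp1 the 3 TIMP genes went both ways. Furin fell by 0.46. Adam8 rose by 1.32, from a mean of 488 to 1223 FPKM, Adam10 by 0.61 and Adam15 by 0.31, and Adam17, the TNF convertase, fell by 0.66.

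In M2 DRD5-/- cells none of the 29 related genes was called with DA by limma, against 4.02% of all genes. An unadjusted p under 0.05 was found for 14 of the 29, and for 4570 of all 10735 genes. The largest log2 fold change among the 14 was 0.24, for Mmp19. Adam8 at 0.23 (limma, adjusted p = 2.62e-05) and Adam10 at 0.20 (limma, adjusted p = 0.000313) failed only on the fold asked for. So did Anxa2 at -0.21 (limma, adjusted p = 0.000418) and Adam17 at 0.21 (limma, adjusted p = 0.00047). Between the untreated M2 genotypes 7 of the 29 were called, against 5.51% of all genes, and 5 with the replicate block or without M2 WT replicate 1 or 3 or M2 DRD5-/- replicate 1. Lrp1 was higher in DRD5-/- by 0.30 (limma, adjusted p = 1.80e-06) and Mmp19 by 0.31 (limma, adjusted p = 0.000790). Timp3 was lower by a log2 difference of -0.69, Serpine2 by -0.63, S100a10 by -0.39, Mmp3 by -0.36 and Mmp2 by -0.31. The 7 fibroblast and stromal markers were lower in untreated M2 DRD5-/- too, summing to 81.0 to 83.0 FPKM against 129 to 132 in WT. Their part in these related gene differences was not tested. The DA effect differed between the M2 genotypes for 16 of the 29, against 43.2% of all genes, with the largest positive difference for Adam8, at 1.09, and the largest negative one for Mmp3, at -1.78.

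**Figure D4:**
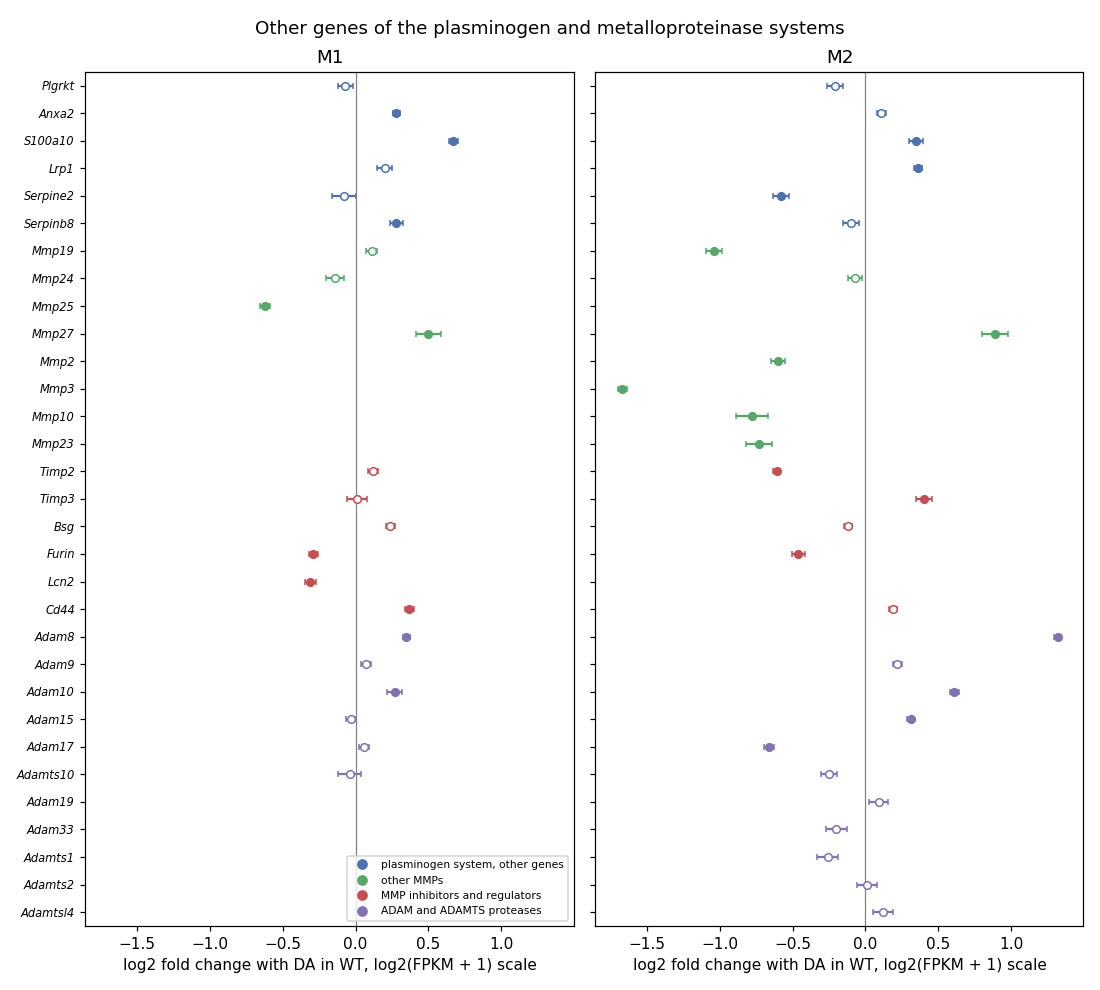
Log2 fold change with DA in WT cells on the log2(FPKM + 1) scale for the tested genes of the 4 related lists, M1 left and M2 right on a common axis, coloured by list, bars giving the SE and filled points those past an adjusted p of 0.001 and 1.2-fold. Adam8 lies at 0.35 in M1 and 1.32 in M2, and 5 of the 7 green points in M2 are filled on the lower side.

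The genes most like Plau over the 12 libraries of each stimulus were taken by Pearson's r of log2(FPKM + 1), as a description over libraries that fall into 4 groups. In M1 they were Sel1l3, Itgb7, Tnfaip2, Plxdc1 and Mcoln2, with r from 0.994 to 0.996. Itgb7 was at means of 27.9 FPKM in WT, 53.1 with DA, 28.5 in DRD5-/- and 28.0 with DA. In M2 they were Slc35a4, Cd300ld, Aprt, Slc16a1 and Tubb5, with r from 0.995 to 0.997. Cd300ld was at means of 92.2, 256, 107 and 95.5 FPKM in the same order of groups, with its untreated DRD5-/- level above its WT level, as for Plau. Such likeness was common, since 273 of 10039 genes in M1 and 978 of 10734 in M2 had an r above 0.95 with Plau.

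**Figure D5:**
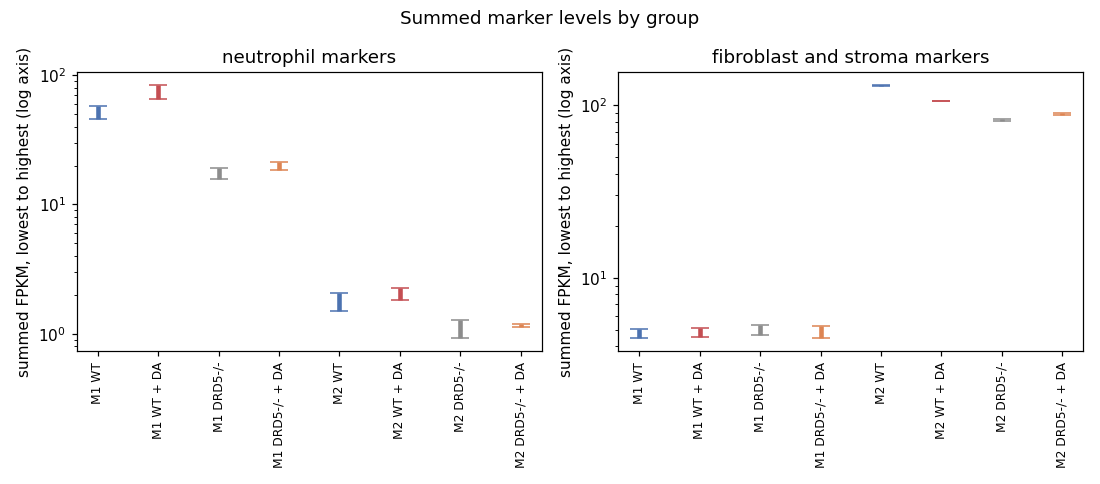
Summed FPKM of the 10 neutrophil markers (left; 8 of them listed in M2) and the 7 fibroblast and stromal markers (right) on log axes, each bar running from the lowest to the highest of 3 libraries in a group. The neutrophil sum in M1 runs from 46.0 to 84.7 in the WT groups and from 15.8 to 21.3 in the DRD5-/- groups, and the fibroblast sum in M2 is highest, at 129 to 132, in untreated WT.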

How the data were processed

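RNA of 24 BMDM libraries was sequenced on a BGISEQ-500, and per the labels the authors mapped filtered reads to the mouse genome with HISAT2 and normalized to FPKM. The submitters' processing notes name GRCm38.p6 and Bowtie2 (2.2.5). The deposited FPKM values were used as they stand. They hold no counts, so depth is unknown, FPKM sums ran from 476187 to 503799 per library, and no counting interval is given. The members, lists and motifs were chosen with earlier results of these data known. M1 and M2 libraries were fitted apart (12 each) with limma 3.58.1 (R 4.3.3; trend) on log2(FPKM + 1), 1 mean per group, over genes at 1 FPKM or more in at least 3 of 12 libraries. P-values were adjusted by Benjamini-Hochberg over all genes tested, and calls needed an adjusted p under 0.001 and at least 1.2-fold. Named genes were all 9 members, up to 12 related genes per stimulus called with DA in WT, up to 5 in each other contrast, and the 5 most like the member with the largest DA change. Counts of calls name others. A result of the related lists is not reported here. The script was tested on simulated data. Alternatives were a pseudocount of 0.1, a replicate block, no expression filter, quantile normalization, scaling by median of ratios, an adjusted p of 0.05 and leaving out each library in turn. Positions and promoters came from RefSeq (GRCm38.p6).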

Additional observations from a re-analysis of the deposited data

Results flagged for a closer look

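The difference of the DA effect between WT and DRD5-/- cells was called for 15 member and stimulus pairs in the limma fit. Of all genes tested, 8.38% were called in the same way in M1 and 43.2% in M2, so nothing is read from that count. The values are log2 differences, WT minus DRD5-/-. In M1 these were Plau at 1.25, Plaur at 0.44, Serpinb2 at 0.83, Mmp8 at 1.30, Mmp12 at 0.69 and Mmp13 at 0.50. In M2 they were Plau at 3.94, Plaur at 1.08, Serpinb2 at 1.19, Mmp8 at 1.34, Mmp9 at -0.64, Mmp12 at 0.39, Mmp13 at 1.30, Mmp14 at -0.49 and Timp1 at 1.47. The genes were chosen on results of these libraries, so these values are descriptions. Groups of 3 libraries are too small for a check of single libraries that stand apart.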

How the results depend on the processing

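The counts of members and related genes past the threshold stayed within 1.5 times the reported count under every alternative run, with 1 exception: with quantile normalization 1 related gene was called with DA in M2 DRD5-/- cells, against none. Leaving out a library gave 3 to 4 members called with DA in M2 DRD5-/- and 3 to 5 between the untreated M2 genotypes. Single members lost or gained a call 19 times of 1530. Timp1 between the untreated M2 genotypes was lost with no expression filter (-0.27), median-of-ratios scaling (-0.22) and quantile normalization (-0.24), and Mmp12 in the M2 difference of the DA effect with quantile normalization (0.24). The cause was not tested. Timp1 in the M1 difference of the DA effect was gained with median-of-ratios scaling (0.26). Directions turned 26 times, all in log2 fold changes of at most 0.0424 in size that were not called. They were, with DA in M1 DRD5-/-, Mmp13 with quantile normalization (0.0196). In the untreated M1 genotypes it was Plau with median-of-ratios scaling (0.0027) and quantile normalization (0.00882). In M2 they were Mmp14 with DA in DRD5-/- with quantile normalization (-0.01) and, without DA, Mmp12 in DRD5-/- against WT with median-of-ratios scaling (0.00443). Leaving out single libraries gave, with DA in M1 DRD5-/-, -0.0659 to 0.0135 for Plaur, -0.0132 to 0.0128 for Mmp13, -0.00985 to 0.0206 for Mmp14, -0.00613 to 0.0774 for Plau and -0.0118 to 0.0886 for Serpinb2. Between the untreated M1 genotypes it gave -0.0122 to 0.0124 for Timp1, -0.0301 to 0.0334 for Plau and -0.0074 to 0.0403 for Mmp12. With DA in M2 DRD5-/- it gave -0.0831 to 0.0327 for Mmp9 and -0.00231 to 0.0674 for Timp1.

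Titles share replicate numbers, but these did not pair the libraries. Same-numbered libraries had a mean correlation of their deviations of -0.0208 in M1 and -0.016 in M2, and 2 and 4 of 12 correlated best with their own number. With the replicate block the members called were 6 in M1 WT with DA, 9 in M2 WT with DA, 3 in M2 DRD5-/- with DA and 4 between untreated M2 genotypes, as without it, and 5 related genes were called in the last comparison, against 7. The depth behind the FPKM values is unknown, so no limit for values near 0 can be given, and Mmp9 in M1 and Mmp8 in M2 rest on values near 1 FPKM.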
